A study of Mus musculus with 12 samples.

Results

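The genes described here are 10 genes of antigen presentation by class II molecules of the major histocompatibility complex (MHC): H2-Aa, H2-Ab1, H2-Eb1, Cd74, H2-DMa, H2-DMb1, H2-DMb2, H2-Oa, Ciita and Cd83. They were taken by symbol from the 28694 gene rows of the expression matrices, and each symbol matched 1 row. The study profiled single cells of the brain meninges of C57Bl/6j pups at postnatal day 4 by droplet sequencing with a 5' kit of 10x Genomics. There were 2 naive libraries and 2 libraries taken 6 h after hypoxia-ischemia (HI), a brain injury in which oxygen and blood flow are both cut, and each library pooled 12 mice, 6 of them male and 6 female. The 2 runs each held 1 library of either kind, and the labels do not say which number belongs to which run. There was no sham group, so HI and the handling that came with it cannot be told apart. No allele or drug is named for any group.

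Class II molecules show peptides from swallowed material to CD4+ T cells. Their alpha and beta chains (H2-Aa and H2-Ab1 for H2-A, H2-Eb1 for the beta chain of H2-E) pair in the endoplasmic reticulum with the invariant chain, which is encoded by Cd74, and travel to late endosomes. There the invariant chain is cut away, and H2-DM (H2-DMa with H2-DMb1 or H2-DMb2) loads the peptide, held back by H2-O, to which H2-Oa contributes the alpha chain. Ciita is the coactivator that switches on the chains, Cd74 and H2-DM. Cd83 keeps class II molecules at the surface by opposing the ubiquitin ligase March1. C57BL/6 mice lack a working H2-Ea gene, so H2-Eb1 RNA in this strain is not matched by H2-E at the surface. Dendritic cells and B cells carry class II molecules constitutively, and macrophages and monocytes acquire them late or on stimulation.

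In the gene table that came with the files (build GRCm38.p6), 7 of the 10 genes lie together on chromosome 17 between position 34092379 (the start of H2-Oa) and 34316674 (the end of H2-Eb1). Cd74, Ciita and Cd83 lie on other chromosomes. RefSeq promoters (GRCm38.p6, 250 bases upstream to 50 bases downstream of a start) were at hand for 6 of the 10. H2-DMa had 2 entries, neither with the X box string described below, and 1 of them with GATTGG, 199 bases before its start; they are not printed. The upstream stretches below are shown because H2-DMb1 and H2-DMb2 divided by cell type and followed the chains unequally (Pearson's r 0.68 and 0.89, below). They run 5′ to 3′ on the gene's strand, and capitals mark 3 strings searched on both strands: GATTGG (an inverted CCAAT box, the Y box), an X box core (AAC, any 3 bases, TGA, any base, G) and TGACGTCA (a cyclic AMP response element). The letters of these strings were chosen after the promoters of the members had been seen.
H2-Aa: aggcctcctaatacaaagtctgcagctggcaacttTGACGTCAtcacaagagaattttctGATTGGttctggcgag
H2-Eb1: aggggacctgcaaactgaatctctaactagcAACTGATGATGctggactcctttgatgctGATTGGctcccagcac
H2-DMb1: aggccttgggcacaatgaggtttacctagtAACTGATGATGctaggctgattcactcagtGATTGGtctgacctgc
H2-DMb2: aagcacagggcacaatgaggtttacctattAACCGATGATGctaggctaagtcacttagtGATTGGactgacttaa
H2-Oa: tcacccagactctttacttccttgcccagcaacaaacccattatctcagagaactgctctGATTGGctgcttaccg
The H2-Aa stretch is chr17:34287857-34287932 on the minus strand. The others are on the plus strand: H2-Eb1 at chr17:34305747-34305822, H2-DMb1 at chr17:34153069-34153144, H2-DMb2 at chr17:34145098-34145173 and H2-Oa at chr17:34092275-34092350. GATTGG stood 49 bases before the start of H2-Aa, 60 before that of H2-Eb1, 62 before that of H2-DMb1, 91 before that of H2-DMb2 and 44 before that of H2-Oa. The X box string followed by GATTGG within 40 bases occurred in 18 of 32851 RefSeq promoters (0.0548%), and 3 of the 18 were H2-Eb1, H2-DMb1 and H2-DMb2, with 18, 19 and 19 bases between the strings. Alone, GATTGG was in 14.6% of all promoters, the X box string in 2.25% and TGACGTCA in 1.55%. The printed stretches of H2-DMb1 and H2-DMb2 had the same base at 63 of 76 positions. A match of letters is a description of sequence only.

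The 4 libraries held 4213 to 6421 barcodes and 51986763 to 68543046 UMIs (unique molecular identifiers, each a count of 1 captured RNA molecule). After removal of doublets 4070 to 6081 cells remained per library, all with more than 3000 UMIs. Pairs of libraries shared 29 to 55 barcodes. Cells were clustered without the presentation genes and named by marker genes, so a name means that the cells resemble the type: border-associated macrophages (BAM, macrophages that live in the membranes around the brain), microglia, monocytes, dendritic cells and lymphocytes. Clusters 11, 19 and 4 carried BAM markers and stayed unnamed: cluster 11 led with Ccl8 and Mgl2, cluster 19 with Cxcl16 and Axl, and cluster 4 carried neuronal RNA. Levels are UMIs scaled to the same total in every class and library (CPM), and 4 values in a row follow the order naive 1, naive 2, HI 1, HI 2. Free RNA in droplets can give any cell a UMI, intervals and detection limits cover counting error only, and p-values measure only the spread between these pooled libraries. With 2 libraries against 2, a 2-sided exact permutation test of 1 value cannot go below p = 0.33, so tests were made across all genes with edgeR.

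The 3 chains were concentrated in few cells. A UMI of at least 1 of them was present in 5.82%, 4.86%, 4.91% and 4.82% of all kept cells. Cells with at least 10 UMIs of H2-Aa, H2-Ab1, H2-Eb1 and Cd74 together (here called high cells) numbered 234, 238, 180 and 226, which was 4.76%, 4.20%, 4.42% and 3.72% of all kept cells. In 55.5%, 60.7%, 49.8% and 56.1% of cells none of the 4 genes had a UMI. Most of the neonatal meninges' cells therefore held little or no class II RNA in either group. High cells were not all antigen-presenting types: BAM, by far the most numerous class, supplied 24, 27, 44 and 32 of them.

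Type 2 conventional dendritic cells (cDC2, the Cd209a positive cells that prime CD4+ T cells) numbered 31, 49, 26 and 52 and carried the highest levels of the chains among classes with at least 20 cells in each naive library. H2-Aa stood at 12853, 14446, 11277 and 13170.5 CPM in cDC2, and 98.0% to 100% of these cells had a UMI of it. H2-Ab1 stood at 8714, 8161, 6178 and 7423 CPM, and H2-Eb1 at 9970.2, 10347, 7789.8 and 8577 CPM. Type 1 conventional dendritic cells (cDC1, the Clec9a positive cells specialised in cross-presentation) numbered only 20, 10, 5 and 8, with H2-Aa at 12105, 9606, 8158 and 11918 CPM. The 2 dendritic classes together held most H2-Aa UMIs: cDC2 held 35.4%, 65.4%, 47.3% and 74.8%, and cDC1 30.4%, 10.3%, 13.5% and 13.02%. Unnamed cluster 38, of only 10, 5, 14 and 19 cells and led by Saa3, H2-Ab1 and Cd209a among others, held 13.1%, 4.75%, 18.8% and 0%, at 9350.5, 8131, 5568 and 0 CPM. Unnamed clusters 39 and 36 held at most 4.77% and 4.21% of the H2-Aa UMIs of a library.

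Classical monocytes, marked by Ly6c2 with Ccr2, which blood sends into inflamed tissue, came next for H2-Aa in naive libraries among classes of 20 or more cells in each of them (2279 CPM ± 227, SD, n = 2), ahead of B cells (1055 ± 452), and the 2 classes did not overlap. H2-Aa in classical monocytes was 2439, 2118, 2895 and 1257 CPM, yet only 20.3%, 20.3%, 31.8% and 23.1% of them had a UMI. B cells reached 1375, 735, 996 and 688 CPM with 71.9%, 69.0%, 64.3% and 71.4% positive. So the higher mean of the monocytes came from a smaller share of their cells. Below B cells the naive order of H2-Aa among these classes ran through pre-B cells (63.7 CPM ± 74.8) and cluster 19 (35.6 ± 40.02), whose libraries overlapped. The smaller clusters 38 and 39 lay above classical monocytes (8741 and 5787 CPM), and cluster 36 (838 CPM) below B cells.

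Non-classical monocytes, which patrol vessel walls, and BAM hardly held the chains. H2-Aa in non-classical monocytes was 1.62, 6.89, 0.799 and 1.58 CPM, from 3, 19, 1 and 4 UMIs, and in BAM 0.315, 0.425, 0.338 and 0.358 CPM. Mature neutrophils, which should lack class II, had 0 H2-Aa UMIs in 25, 43, 85 and 104 cells, which allows shares of up to 12.0%, 6.98%, 3.53% and 2.88%. The share of H2-Aa positive BAM (0.371%, 0.462%, 0.219% and 0.221%) came from 10, 16, 11 and 15 UMIs, and the neutrophils are too few to set a background at that level. The median depths of the 2 classes were 9646.5 to 11141 UMIs in BAM and 4078 to 6990 in mature neutrophils.

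In microglia 1 of the 3 chains stood apart. H2-Ab1 had 127, 74, 97 and 138 UMIs in microglia (12.8, 9.86, 12.1 and 16.5 CPM), whereas H2-Aa had 3, 0, 6 and 2 and H2-Eb1 4, 4, 0 and 1 in the same cells. A UMI of H2-Ab1 was found in 12.7%, 12.1%, 13.9% and 14.4% of microglia, and in 2.31%, 2.42%, 4.01% and 3.66% after each cell was thinned to 3000 UMIs. Mast cells or basophils (24 cells in each naive library) had H2-Ab1 at 9.77 CPM ± 1.35 there (SD, n = 2), with H2-Aa and H2-Eb1 at 0. T or NK cells had 0, 0, 1 and 0 UMIs of H2-Ab1, and mature neutrophils none. In cDC2 of the same libraries H2-Ab1 and H2-Aa had 3530 and 5207, 4780 and 8461, 1963 and 3583, and 4746 and 8421 UMIs, so the ratio of the 2 chains in microglia was not that of the cells that held most of both.

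Cd74 was found in more classes than the chains. Among classes with at least 20 cells in each naive library, its naive order ran from cDC2 (42068 CPM ± 2691) through B cells (10698 ± 1483), classical monocytes (7762 ± 139), non-classical monocytes (465 ± 24.7) and cluster 11 (382 ± 81.9), with no overlap between neighbours. After cluster 19 (206 ± 72.3), pre-B cells (177 ± 125), cluster 4 (82.6 ± 16.3) and BAM (75.5 ± 7.94) each overlapped the class before. Every B cell had a Cd74 UMI in all 4 libraries, at 11747, 9649, 8207 and 7988 CPM. In BAM 42.0%, 36.0%, 50.9% and 41.3% of cells had one (18.3%, 15.2%, 21.3% and 18.0% after thinning), against 4.08%, 5%, 15.4% and 2.70% of T or NK cells and 12.0%, 2.33%, 3.53% and 5.77% of mature neutrophils. Median depth was 7249 to 8802 UMIs in T or NK cells.

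**Figure D1:**
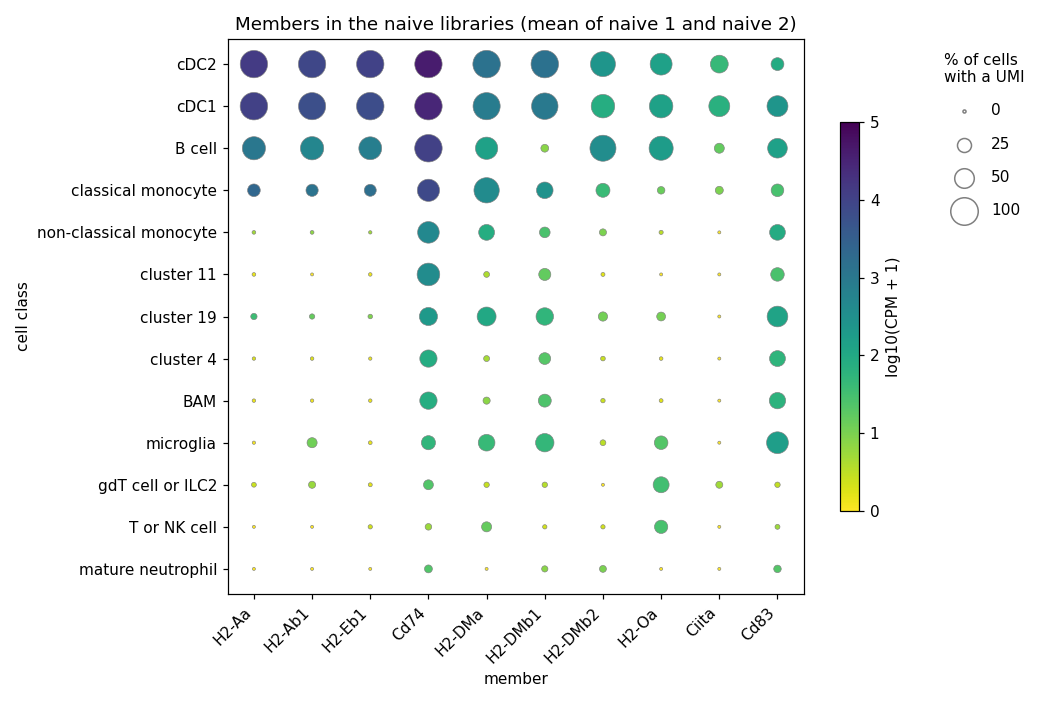
Mean level (colour, log10 of CPM + 1) and share of cells with a UMI (dot area) of the 10 genes in 13 cell classes, averaged over the 2 naive libraries. The chains H2-Aa, H2-Ab1 and H2-Eb1 are darkest in cDC2, cDC1, classical monocytes and B cells, Cd74 extends to non-classical monocytes and cluster 11, and the Cd83 dot covers most cells in microglia (61.3% and 63.5% in the 2 libraries).

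The peptide loader H2-DM had a wider distribution. H2-DMa was 1333, 1301, 1180.3 and 1384 CPM in cDC2, 377, 439, 495 and 305 in classical monocytes and 79.8, 75.4, 64.7 and 79.2 in non-classical monocytes. Microglia held 43.7, 38.5, 45.001 and 51.0 CPM of H2-DMa, although H2-Aa was nearly missing there. In BAM it was 6.53, 6.26, 5.38 and 5.34 CPM.

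The 2 beta chains of H2-DM divided by cell type. B cells held almost only H2-DMb2 (402, 321, 193 and 248 CPM) and little H2-DMb1 (5.48, 7.90, 2.75 and 4.54 CPM), so that H2-DMb2 made up 98.7%, 97.6%, 98.6% and 98.2% of the UMIs of both. In cDC2 the same share was 15.6%, 14.8%, 13.8% and 14.2%, in classical monocytes 12.8%, 10.6%, 17.4% and 13.9%, and in BAM 4.53%, 7.31%, 6.00% and 7.19%. The B-cell shares had exact (Clopper-Pearson) 95% intervals with a lowest bound of 92.4% over the 4 libraries. The genes are near-identical copies, and how the authors' counting divided shared reads between them is not given in the sources used here.

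Among classes with at least 20 cells in each naive library, H2-Oa, the modulator, was highest in B cells (214, 152, 113 and 121 CPM) and cDC2 (133, 150.3, 85.0 and 84.5 CPM). Its naive mean lay above that of each chain in mast cells or basophils and in gamma-delta T cells or group 2 innate lymphoid cells. Mast cells or basophils had 111 and 79.3 CPM in the naive libraries, with 45.8% of cells positive in each. Gamma-delta T cells or group 2 innate lymphoid cells had 36.1, 26.4, 43.3 and 46.8 CPM. T or NK cells had 28.1, 28.1, 30.7 and 16.2 CPM and microglia 20.1, 20.6, 15.3 and 17.6 CPM. Because microglia are numerous, they held 34.4%, 32.3%, 46.2% and 37.1% of all H2-Oa UMIs. H2-Oa in BAM was 0.3999 to 0.906 CPM.

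Ciita, the master switch, was sparse: 82, 47, 31 and 65 UMIs in all kept cells. It was 44.4, 42.7, 34.6 and 56.3 CPM in cDC2 (41.9%, 40.8%, 30.8% and 51.9% positive) and 65.0, 65.1, 63.9 and 56.9 CPM in cDC1. B cells had 18.3, 11.1, 8.26 and 18.2 CPM and classical monocytes 13.6, 3.38, 8.62 and 2.90, from 8, 2, 2 and 1 UMIs. Gamma-delta T cells or group 2 innate lymphoid cells had 8.43, 0, 4.56 and 8.67 CPM, from 7, 0, 2 and 5 UMIs. No Ciita UMI was found in non-classical monocytes (0 of 293, 432, 186 and 394 cells, which allows shares of cells with a UMI of up to 1.02%, 0.694%, 1.61% and 0.761%), in microglia, in T or NK cells or in mature neutrophils, and BAM held 1 in all. At this depth a low level in those classes was not detectable.

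Cd83 did not follow the others. In the naive libraries, among classes of at least 20 cells, it was highest in microglia (154, 169, 122 and 117 CPM) and B cells (144, 145, 118 and 62.0 CPM). Cluster 19 came next there (127 CPM ± 40.6, SD, n = 2) and overlapped B cells. BAM held most Cd83 UMIs together with microglia: 47.1%, 46.2%, 50.7% and 54.9% in BAM and 32.2%, 30.9%, 36.3% and 31.7% in microglia. In cDC2 Cd83 was 96.3, 76.8, 189 and 7.82 CPM, and the HI libraries lay on either side of the naive ones. Over 60 sums of a class in a library with at least 20 cells each, from 20 classes, Pearson's r with the mean standardised log2(CPM + 1) of H2-Aa, H2-Ab1, H2-Eb1 and Cd74 was 0.89 for H2-DMb2, 0.86 for Ciita, 0.81 for H2-DMa, 0.68 for H2-DMb1, 0.56 for H2-Oa and 0.35 for Cd83. The sums share libraries and class make-up, so r is given as a description. Among the 13279 genes ranked, the 6 others most like the chains were Kynu (0.85), Rgag4 (0.81), Gm15987 (0.77), Slamf7 (0.76), Hepacam2 (0.76) and Ero1lb (0.75).

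HI was then compared with naive in each class with at least 20 cells in every library. Among the genes given here 2 passed in non-classical monocytes, and both were lower after HI. Cd74 fell, with 447, 482, 250.01 and 287 CPM, a log2 change of -0.81 (SE 0.10, edgeR quasi-likelihood test, Benjamini-Hochberg adjusted p = 4.97e-04). Cd83 fell, with 74.4, 98.6, 24.8 and 43.2 CPM, a log2 change of -1.30 (SE 0.21, edgeR adjusted p = 0.00243). In both genes each HI library lay below each naive library. Of all 8585 genes tested in this class 2.82% were called, 1.55% of them as lower, so calls were not rare there.

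The other 3 of the 5 tested members did not pass in non-classical monocytes. H2-DMa had a log2 change of -0.10 (SE 0.14, edgeR adjusted p = 0.852), with 79.8, 75.4, 64.7 and 79.2 CPM and overlapping groups. The levels of H2-DMb1 were 29.1, 22.8, 25.6 and 24.6 CPM and those of H2-DMb2 7.55, 10.2, 9.59 and 12.3 CPM, also overlapping. The median log2 change of the 5 was -0.10, against 0.0057 over all genes tested. H2-Aa, H2-Ab1, H2-Eb1, H2-Oa and Ciita did not pass the filter on low counts and were not tested. The chains had 13, 60, 1 and 12 chain UMIs in 4, 3, 1 and 6 cells, and 58 of the 60 in naive 2 came from 1 cell. H2-Ab1 was tested in 4 alternatives and passed in 2, with a log2 change of -2.53 without the filter and -2.83 without naive 1 (edgeR adjusted p = 0.00839 and 0.0483). It did not pass without HI 1 or HI 2 (edgeR adjusted p = 0.221 and 0.14).

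Whether few positive cells held the fall of Cd74 was examined by splitting its level. A Cd74 UMI was present in 63.5%, 59.0%, 55.9% and 51.8% of non-classical monocytes, and in 47.8%, 42.8%, 43.0% and 37.6% after thinning to 3000 UMIs, where the groups overlapped. UMIs per positive cell were 4.46, 5.21, 3.01 and 3.56, and the HI libraries lay below the naive ones. The mean HI level was 0.579 of the naive mean, the share of positive cells 0.879 of it and the UMIs per positive cell 0.679. So more of the ratio lay in RNA per positive cell than in the number of positive cells. High cells, chosen by this very measure and so not tested, were 20 of 293, 27 of 432, 2 of 186 and 13 of 394 non-classical monocytes, and they held 43.2%, 57.6%, 13.4% and 35.8% of the Cd74 UMIs.

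Without the high cells Cd74 in non-classical monocytes was 280.3, 224, 220.0 and 194 CPM, an HI to naive ratio of 0.821 in place of 0.579. The single highest cell of each library held 81, 281, 30 and 97 Cd74 UMIs, and leaving out that cell alone gave a ratio of 0.608. High cells were 6.83%, 6.25%, 1.08% and 3.30% of the class. They are defined mainly by Cd74 itself, so leaving them out can by itself shrink a difference in Cd74. The ratio moved with the definition: 0.841 with cells of at least 5 UMIs left out and 0.676 with at least 20. After thinning, 4.10%, 4.17%, 1.08% and 1.78% of the cells held 6 or more Cd74 UMIs. The test on counts of positive thinned cells gave Cd74 a log2 change of -0.19 (edgeR adjusted p = 0.806).

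Cd83 was split the other way. It was found in 30.7%, 33.3%, 12.9% and 15.7% of non-classical monocytes (20.1%, 21.8%, 7.53% and 9.14% after thinning), and the groups did not overlap. UMIs per positive cell were 1.53, 1.89, 1.29 and 1.76, with overlapping groups. The HI to naive ratio was 0.447 for the share of positive cells and 0.891 for the UMIs per positive cell, and without the high cells the ratio of levels was 0.409 against 0.392 with them. The test on positive cells gave a log2 change of -1.29 but an edgeR adjusted p of 0.0807. In that test none of 6 members tested was called, 1 had an unadjusted p under 0.05, and 0.141% of all genes were called.

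**Figure D2:**
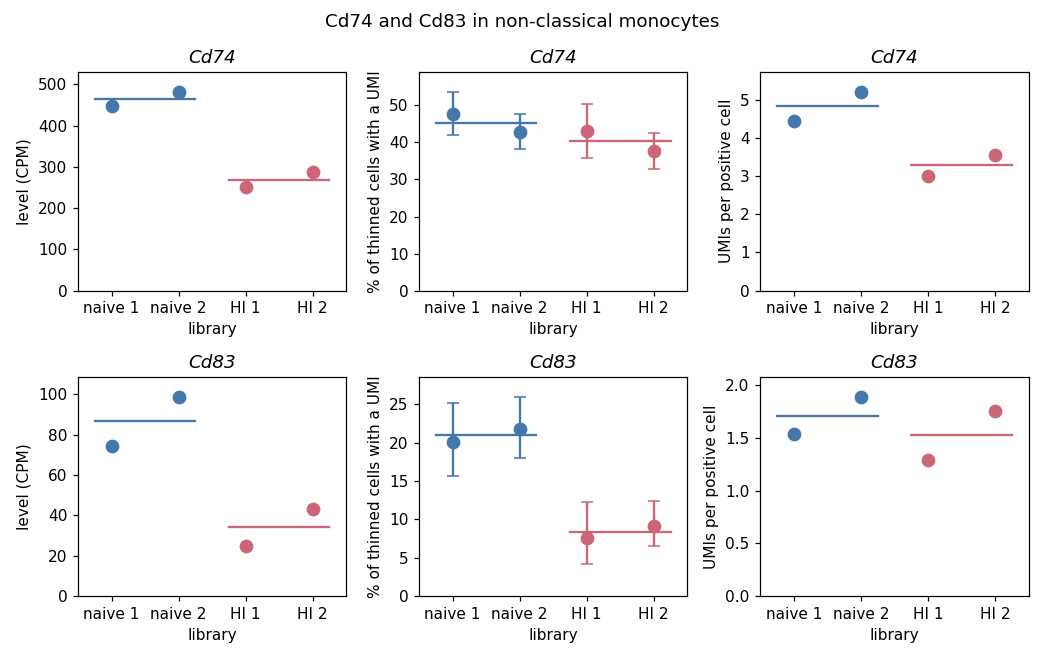
Cd74 (top) and Cd83 (bottom) in non-classical monocytes of each library: level in CPM, share of cells thinned to 3000 UMIs that held a UMI (bars are exact 95% binomial intervals) and UMIs per positive cell; lines are group means of 2 libraries. The Cd74 level and UMIs per positive cell separate the groups, whereas for Cd83 the level and the share of positive cells do.

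**Figure D3:**
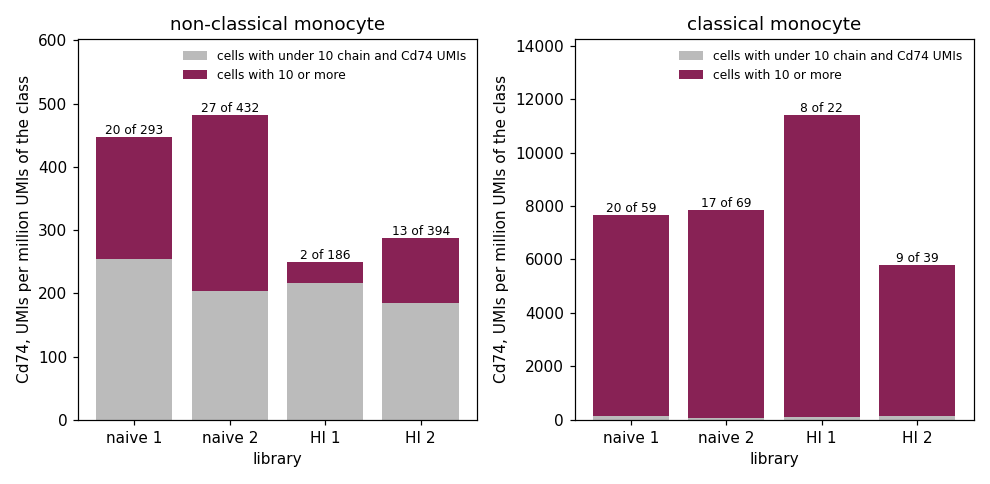
Cd74 level in CPM of the class in non-classical (left) and classical monocytes (right), stacked by cells with under 10 UMIs of H2-Aa, H2-Ab1, H2-Eb1 and Cd74 and cells with 10 or more; numbers above the bars are cells of the second kind out of all. In non-classical monocytes the upper part shrinks from 20 and 27 cells to 2 and 13, and in classical monocytes nearly all Cd74 sits in the upper part in every library.

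Other RNA moved with HI in the same cells. The 11 markers of non-classical monocytes themselves summed to 8136 and 7767 CPM in the naive and 6264 and 5888 CPM in the HI libraries, all 11 detected in each. The 8 mature neutrophil markers summed to 253 and 619 CPM against 752 and 1957 CPM, with Retnlg, Mmp9 or both at 0 in 3 of 4 libraries, and the 10 BAM markers to 182 and 108 CPM against 364 and 201 CPM. The part of these shifts in the fall of Cd74 and Cd83 was not tested. Markers of class II cells did not separate the groups: the 9 cDC2 markers summed to 1250.2 and 1295 against 1188 and 1362 CPM with Cd209a at 0 in all 4 libraries, and the 10 B-cell markers to 99.8 and 102 against 104 and 85.1 CPM with Ms4a1, Pax5, Ighd and Fcmr at 0 in all 4.

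In classical monocytes none of the 8 members tested passed by edgeR, nor any of 7 by DESeq2, and none had an unadjusted edgeR p under 0.05, where 1.45% of 5371 genes were called. Log2 changes ran from -0.50 for Cd83 to 0.56 for H2-DMb2. The HI libraries lay on both sides of the naive ones for Cd74 (7664, 7861, 11400.2 and 5808 CPM) and for H2-Eb1 (1596, 1548, 2426 and 949 CPM). High cells numbered 20, 17, 8 and 9 of 59, 69, 22 and 39, and held 98.3%, 99.0%, 99.1% and 97.8% of the class's Cd74 UMIs. High cells were thus 23.1% to 36.4% of the cells of this class. The test on positive cells called none of 8 members and none of all 5639 genes (percent called 0), with no member at an unadjusted p under 0.05.

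The make-up of the class differed between the groups. It was built of cluster 35 (led by Ccr2 and Ms4a4c, with 33, 34, 21 and 33 cells) and cluster 37 (led by Ly6c2 and Fn1, with 26, 35, 1 and 6 cells), so the HI libraries held few cells of cluster 37. High cells were nearly all in cluster 35: 19, 17, 8 and 9 there and 1, 0, 0 and 0 in cluster 37. A comparison within cluster 35 alone was therefore added after the data had been seen. In it H2-Aa was 4602, 4291, 3089 and 1468 CPM, H2-Ab1 2492, 2380, 1646 and 863 CPM, and Cd74 14302, 15833, 12163 and 6783 CPM, and each HI library lay below each naive one.

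Within cluster 35, H2-Aa fell by 1.02 on the log2 scale (SE 0.20, edgeR adjusted p = 0.00791), H2-Ab1 by 1.01 (SE 0.19, edgeR adjusted p = 0.00456) and Cd74 by 0.71 (SE 0.17, edgeR adjusted p = 0.0345). These were 3 of 8 members tested, where 1.47% of all 4005 genes were called and 0.499% were called as lower. H2-Eb1 changed by -0.79 and H2-DMb1 by -0.71 with an edgeR adjusted p of 0.0814 each, from 3011, 3135, 2588 and 1108 CPM and from 513, 598, 414 and 292 CPM. The calls were not stable: DESeq2 called none of the members (H2-Aa at an adjusted p of 0.9997), and without HI 1 or HI 2 the log2 change of H2-Aa was -1.62 or -0.59. High cells were 19 of 33, 17 of 34, 8 of 21 and 9 of 33.

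**Figure D4:**
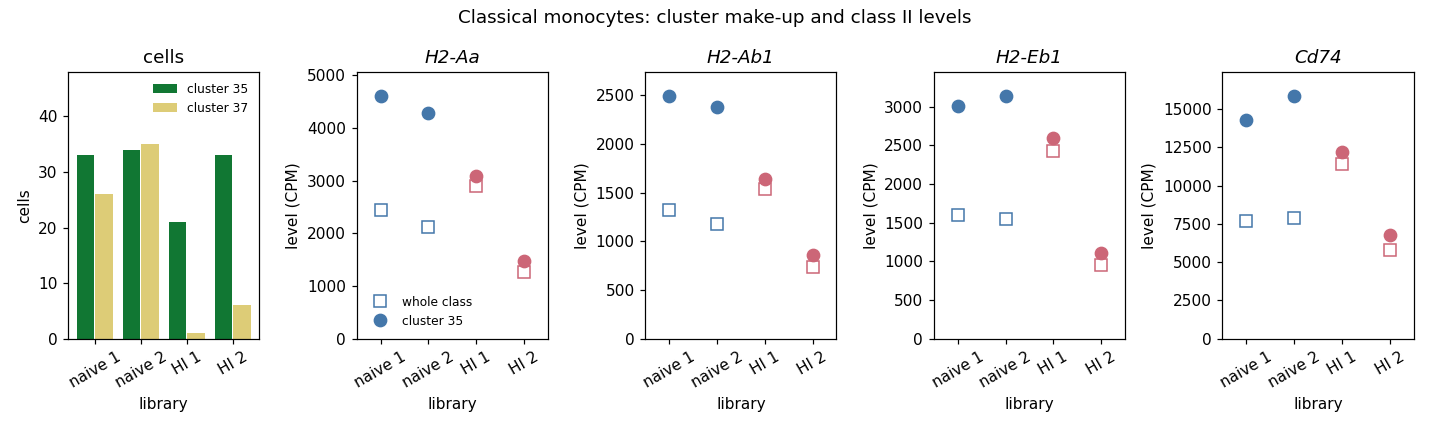
Cells of the 2 clusters that make up the classical monocyte class (left) and levels in CPM of H2-Aa, H2-Ab1, H2-Eb1 and Cd74 in each library, for the whole class (open squares) and for cluster 35 alone (filled circles). The squares of the HI libraries lie on both sides of the naive ones for H2-Aa, H2-Ab1, H2-Eb1 and Cd74, whereas the circles of HI 1 and HI 2 lie below both naive circles.

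Among the resident macrophages the change of Cd74 did not go the same way. BAM had 81.1, 69.8, 107 and 82.0 CPM of Cd74 (log2 change 0.33, edgeR adjusted p = 0.171) and 70.4, 50.4, 42.1 and 40.4 CPM of Cd83 (-0.54, edgeR adjusted p = 0.0772). H2-Ab1 in BAM had 12, 7, 21 and 38 UMIs (log2 change 1.51, edgeR adjusted p = 0.0949), in under 1% of cells. None of 9 members passed in BAM by edgeR, 3 had an unadjusted p under 0.05, DESeq2 called 1 (Cd83, adjusted p = 0.00189), and 3.74% of all genes were called. Leaving out naive 2, HI 1 or HI 2 let Cd83 pass in BAM (edgeR adjusted p = 0.00186, 2.03e-04 and 0.0159). In the other direction, H2-Ab1 passed in BAM without HI 1 (log2 change 1.73, edgeR adjusted p = 0.0131) and Cd74 without HI 2 (0.50, edgeR adjusted p = 8.70e-04).

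In microglia none of 7 members passed by edgeR, nor any of 6 by DESeq2, where 0.1% of 10975 genes were called, and 3 had an unadjusted edgeR p under 0.05. Cd74 was 53.4, 49.3, 91.6 and 65.1 CPM (log2 change 0.60, edgeR adjusted p = 0.158) and Cd83 154, 169, 122 and 117 CPM (-0.44, edgeR adjusted p = 0.0972). Both HI libraries lay beyond both naive ones for each gene, upward for Cd74 and downward for Cd83. Cd83 passed without HI 1 (edgeR adjusted p = 1.69e-04), and Cd83 and Cd74 both passed without HI 2 (edgeR adjusted p = 5.42e-04 and 2.11e-09). The groups overlapped for H2-DMb1 (47.2, 46.5, 43.6 and 48.3 CPM) but not for H2-DMa, whose log2 change was 0.21 (edgeR adjusted p = 0.429).

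The unnamed clusters with BAM markers gave 1 call each in 2 of 3 cases. Both of these clusters changed in size between the groups. Cluster 11 held 84, 110, 134 and 320 cells, and cluster 4 held 570, 572, 44 and 138. Whether the cells of each cluster were alike in both groups was not tested. In cluster 11 Cd74 fell (440.0, 324, 270.0 and 259 CPM, log2 change -0.50, SE 0.12, edgeR adjusted p = 0.0478), 1 of 3 members tested where 1.42% of genes were called, 0.399% as lower, and it did not pass with DESeq2 or without naive 1 (adjusted p = 0.059 and 0.37). In cluster 4 Cd83 fell (58.8, 50.1, 25.6 and 29.2 CPM, log2 change -0.94, SE 0.19, edgeR adjusted p = 0.0108), 1 of 4 tested where 1.26% of genes were called, 0.38% as lower, and it did not pass with DESeq2 or without HI 2 (adjusted p = 0.27 and 0.088). In cluster 19 none of 5 members passed by edgeR, none of 3 tested passed by DESeq2, and none had an unadjusted edgeR p under 0.05, where 0.314% were called. Leaving out naive 1 or HI 1 let H2-Aa pass in cluster 19 with a log2 change of -2.05 or -7.31, and leaving out naive 2 turned the change to 0.99. The H2-Aa UMIs behind these values were 8, 33, 19 and 0.

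Gamma-delta T cells or group 2 innate lymphoid cells showed the only rise among the members called. Cd74 rose there (10.8, 33.7, 201 and 104 CPM, log2 change 2.82, SE 0.41, edgeR adjusted p = 0.00829), 1 of 3 members tested where 0.459% of genes were called, 0.355% as higher. It rested on few cells: the UMIs were 9, 23, 88 and 60, and the highest cell of each library held 4, 10, 75 and 30 of them. The share of Cd74 positive cells was 10.7%, 13.2%, 24.2% and 12.2%, with overlapping groups. Without cells that held a chain UMI the log2 change was 0.91 (edgeR adjusted p = 0.61), and Cd74 did not pass with DESeq2, without naive 1 or without naive 2 (adjusted p = 0.23, 0.22 and 0.089).

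In B cells all 9 members tested had negative log2 changes, from -0.02 for Ciita to -0.73 for Cd83, with a median of -0.55 against -0.0054 over all genes, but none passed by edgeR, nor any of 8 by DESeq2. Of the 9, 3 had an unadjusted edgeR p under 0.05 (Cd74, H2-DMb2 and H2-Oa), and 0.0668% of genes were called. Cd74 in B cells was 11747, 9649, 8207 and 7988 CPM, with both HI libraries below both naive ones, and it passed when naive 2 was left out (log2 change -0.58, edgeR adjusted p = 0.015).

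In cDC2 all 10 members were tested and none passed by edgeR without a block or by DESeq2, 1 had an unadjusted edgeR p under 0.05 (H2-Oa, log2 change -0.72), and 0.0203% of genes were called. H2-Aa, Cd74, H2-DMa and H2-DMb1 each had overlapping groups, whereas the values of H2-Ab1, H2-Eb1, H2-DMb2 and H2-Oa were lower in both HI libraries than in both naive ones. Cd83 in cDC2 turned with 1 library: its log2 change was 0.01 in all, -3.37 without HI 1 and 1.12 without HI 2, and it passed both times. The test on positive thinned cells called no member in BAM (8 tested, 1.7% of genes called, 1 member at an unadjusted p under 0.05), microglia (7, 0%, 3), B cells (9, 0%, 0) or cDC2 (10, 0%, 1).

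**Figure D5:**
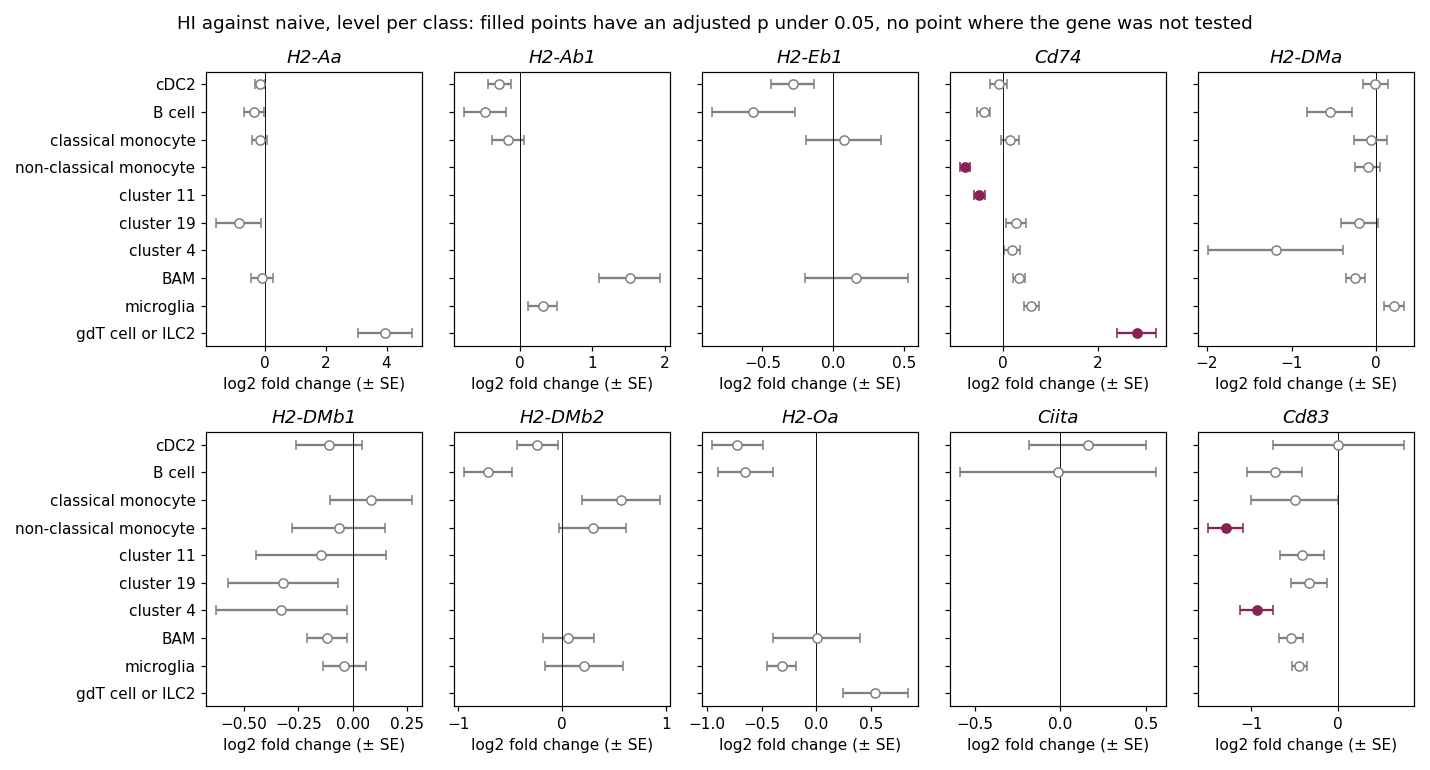
Log2 fold change of HI against naive (± SE) of each of the 10 genes in each class where it was tested; filled points passed at an edgeR adjusted p under 0.05 and each panel has its own scale. The 5 filled points are Cd74 in non-classical monocytes, cluster 11 and gamma-delta T cells or group 2 innate lymphoid cells, and Cd83 in non-classical monocytes and cluster 4.

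Whether the fall in non-classical monocytes differed from other classes was tested by the interaction of class and HI. For Cd74 the HI effect in non-classical monocytes was lower than in BAM by 1.11 on the log2 scale (SE 0.12, edgeR adjusted p = 2.35e-16). It was lower than in classical monocytes by 0.84 (SE 0.17, edgeR adjusted p = 0.00734) and lower than in cDC2 by 0.72 (SE 0.09, edgeR adjusted p = 0.00645). The classical class changed its make-up between the groups (26 and 35 cells of cluster 37 in naive, 1 and 6 in HI libraries), and within cluster 35 alone the change of Cd74 was -0.71, against -0.81 in non-classical monocytes, a difference that was not tested. Cd83 differed from BAM by -0.78 (SE 0.17, edgeR adjusted p = 3.55e-04), while the difference from classical monocytes was -0.79 (SE 0.58, edgeR adjusted p = 0.82). H2-Ab1 differed from BAM by -4.17 (SE 1.05, edgeR adjusted p = 0.00471) on 8, 21, 0 and 4 UMIs in non-classical monocytes. In non-classical monocytes 7 of the 8 H2-Ab1 UMIs of naive 1 and 19 of the 21 of naive 2 lay in 1 cell each. Called members were 3 of 9 against BAM (2.66% of genes called, 1.67% as lower), 1 of 9 against classical monocytes (0.92%, 0.389% as lower) and 1 of 10 against cDC2 (0.0385%, 0.0128% as lower).

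These differences did not all hold when a library was left out. Cd74 against BAM passed each time, with -1.51 to -0.84. Cd83 against BAM was lost without naive 2 and without HI 1, Cd74 against classical monocytes without HI 1 (-0.29), and H2-Ab1 against BAM in all cases except without naive 1. Cd74 against cDC2 was lost whichever library was left out, though its value moved only from -0.75 to -0.70. BAM against microglia gave none of 8 members by edgeR, with 3 at an unadjusted p under 0.05 and 0.411% of genes called.

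Genes around the class II route were counted from lists drawn up for this purpose. In non-classical monocytes, 3 of 6 genes of invariant chain and antigen proteolysis rose, against the direction of Cd74. The list's median log2 change was 0.34, against 0.0057 over all genes. Of all 8585 genes tested there 2.82% were called in either direction, and 109 genes were called as higher. The BAM markers given above also summed higher in the HI libraries of this class, and the part of that in the rise was not tested. The 3 genes of the list that rose were Ctsl, an endosomal protease, at 91.7, 88.1, 153 and 159 CPM (0.77, edgeR adjusted p = 0.00167), the asparaginyl endopeptidase gene Lgmn (0.55, edgeR adjusted p = 0.0193), and the thiol reductase gene Ifi30 (0.53, edgeR adjusted p = 0.00468). The list of class II transcription factors (7 tested), the costimulatory list (5 tested) and the ubiquitination list (2 tested) had no call.

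Of 9 genes of class I presentation 4 fell in the same cells, where 1.55% of all genes were called as lower: the peptide transporter gene Tap1 (-0.73, edgeR adjusted p = 0.0428), the immunoproteasome gene Psmb9 (197, 186, 126 and 133 CPM, -0.58, edgeR adjusted p = 0.00855), H2-D1 (-0.31, edgeR adjusted p = 0.0428) and B2m, the class I light chain (-0.30, edgeR adjusted p = 0.0428), and the list's median was -0.40. H2-D1 and H2-K1 are close copies, so their division of reads is uncertain. B2m lay outside the naming rule and was added because the count is small.

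In classical monocytes 3 of the 6 proteolysis genes rose, where 1.45% of all genes were called, with 45 of 5371 called as higher. They were Ctsl with 216, 137, 491 and 523 CPM (1.52, edgeR adjusted p = 0.0013), Lgmn (1.12, edgeR adjusted p = 0.00134) and Ctsb (0.65, edgeR adjusted p = 0.00927). The 10 BAM markers in the class summed to 503 and 430.3 CPM in naive and 1051 and 1013 CPM in HI libraries, and the 11 non-classical monocyte markers to 1120.1 and 1277.5 against 306 and 433 CPM, and the part of these in the rise was not tested. Within cluster 35 Ctsl and Ctsb rose (1.30 and 0.69, edgeR adjusted p = 0.00301 and 0.0124).

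In BAM the 1 called gene of these lists was March1, the ligase that removes class II molecules from the surface and that Cd83 opposes. March1 rose from 40.6 and 34.99 to 52.4 and 49.5 CPM (0.44, SE 0.08, edgeR adjusted p = 0.0304). Ctsl rose in cluster 19 (0.75, edgeR adjusted p = 0.00441), and Ctss, the protease that finishes the cutting of the invariant chain, rose in gamma-delta T cells or group 2 innate lymphoid cells (1.495, edgeR adjusted p = 0.0134). In B cells, cDC2 and microglia none of the lists held a call by edgeR.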

How the data were processed

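Gene expression libraries were made with a 10x Genomics 5' kit, per the labels' protocols. The deposited values are raw UMI counts per gene and barcode, made by the authors with Cell Ranger 2.2.0 on mm10 (GRCm38), per the submitters' processing notes. The 8 receptor libraries were not used. The members and gene lists were chosen with earlier results of these data known.

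Cells under 200 genes or over 10% mitochondrial UMIs were left out, and the highest doublet scores were removed by rank (0.8% per 1000 barcodes), because the automatic threshold marked almost none. Clustering used scanpy 1.11.5 with 2000 variable genes, 40 principal components, 20 neighbours and Leiden resolution 1.5, leaving out the presentation genes. A cluster was named from at least 3 detected markers. For each class that had 20 or more cells in all 4 libraries, the UMIs of a library were added up and tested with edgeR 4.0.16 (quasi-likelihood, TMM, filter on low counts, Benjamini-Hochberg over all genes, threshold 0.05) in R 4.3.3, with DESeq2 1.42.0 as an alternative. The test on positive cells used cells thinned to 3000 UMIs and genes positive in at least 10 cells. Intervals are exact 95% binomial (Clopper-Pearson), and a count of 0 allows up to 3 counts. Depth was 51986763 to 68543046 UMIs per library. The fits were tested on simulated data for non-classical monocytes, with an assumed spread between libraries. The level test recovered 52.0% of 2-fold and 91.8% of 4-fold changes, and the interaction with BAM 16.7% and 94.5%. Many true 2-fold changes would thus not be called. The test on positive cells recovered 78.9% and 95.3%, on data drawn without spread between libraries. Named were all 10 members in each class, up to 4 pathway genes past the threshold in each direction, and the 6 genes most like the chains. Results for some list genes are not reported here.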

Additional observations from a re-analysis of the deposited data

Results flagged for a closer look

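In 5 cases a member's response to HI differed between 2 cell classes by a test of the difference itself (edgeR interaction of class and HI, Benjamini-Hochberg adjusted). For Cd74 the HI effect in non-classical monocytes minus that in BAM was -1.11 on the log2 scale. For Cd74 against classical monocytes it was -0.835, and against cDC2 -0.723. The classical class held 26 and 35 cells of cluster 37 in the naive and 1 and 6 in the HI libraries, and within its cluster 35 Cd74 changed by -0.71, against -0.81 in non-classical monocytes. For Cd83 against BAM it was -0.782. For H2-Ab1 against BAM it was -4.17, on 8, 21, 0 and 4 UMIs in non-classical monocytes, and 7 of the 8 and 19 of the 21 lay in 1 cell each.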

How the results depend on the processing

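The calls of Cd74 and Cd83 in non-classical monocytes passed under all 14 alternatives run there, with log2 changes of -0.95 to -0.49 and -1.88 to -1.03. Of 254 recomputed counts of called members 202 stayed within 1.5 times and 52 moved. Many of the 202 were counts of 0 that stayed 0. They include mature neutrophils and the level test in T or NK cells, where the fit as reported tested no member, so those counts say little about stability. Of 183 recomputed values of single results on Cd74, Cd83, H2-Aa and H2-Ab1 none turned direction. Not among those were Cd83 in cDC2 and H2-Aa in cluster 19, which turned direction when a library was left out. Counts of called members elsewhere were less stable. With DESeq2 they were 1 in BAM and 0 in cluster 11, cluster 4, gamma-delta T cells or group 2 innate lymphoid cells, and cluster 35. Without a filter on low counts they were 1 in B cells, 3 in BAM, 3 in gamma-delta T cells or group 2 innate lymphoid cells, 2 in microglia and 5 in cluster 35. With no doublets removed they were 1 in classical monocytes, 5 in gamma-delta T cells or group 2 innate lymphoid cells and 1 in microglia. At resolution 1.0 there were 2 in microglia. With cells limited to those of 1000 genes or more and 5% mitochondrial UMIs or less, cluster 11 had 0. Without cells holding a chain UMI, cluster 11 and gamma-delta T cells or group 2 innate lymphoid cells had 0. Cluster 35 alone gave 3 in place of 0 for classical monocytes. Leaving out only the highest cell gave a Cd74 ratio of 0.608.

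The replicate numbers come in 2 pairs and were not taken as pairing the samples (correlation of same-numbered deviations -0.016 to 0.379 over classes). With the replicate block, 2 members were called in BAM, 2 in gamma-delta T cells or group 2 innate lymphoid cells, 2 in microglia, 2 in cDC2 (H2-Ab1 and H2-Eb1, each with a log2 change of -0.29, edgeR adjusted p = 0.0404 and 0.0309) and 0 in cluster 35, and in the test on positive cells 2 in BAM and 1 in non-classical monocytes.

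Leaving out each library in turn gave 0 to 1 called members in B cells, classical monocytes, cluster 11, cluster 19, cluster 4 and cDC2, 0 to 2 in BAM, microglia and gamma-delta T cells or group 2 innate lymphoid cells, and 2 to 6 in cluster 35. In the test on positive cells it gave 0 to 1 in BAM and in non-classical monocytes. For differences between classes it gave 1 to 3 against BAM, 0 to 3 against classical monocytes and 0 to 1 against cDC2, and 0 to 1 for BAM against microglia. Where a library is left out of a pair, the lone library is assumed to vary like the others. The cause of these changes was not tested.

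Counts of all called genes moved as well: over the alternatives that keep every library, 465 to 1784 in BAM (474 as reported), 93 to 461 in non-classical monocytes (242), 7 to 89 in classical monocytes (78), 7 to 710 in microglia (11), 64 to 318 in cluster 11 (125), 54 to 257 in cluster 4 (129), 15 to 83 in cluster 19 (21), 19 to 205 in gamma-delta T cells or group 2 innate lymphoid cells (31), 0 to 131 in B cells (4), 0 to 32 in cDC2 (1) and 11 to 98 in cluster 35 (59). Depth limits the chains, H2-Oa and Ciita in non-classical monocytes, which did not pass the filter on low counts there.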
